A study of Mus musculus with 10 samples.

Results

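Podxl, Cd34, Emcn, Esam, Bcam, Cldn5, Jam3, Pecam1, Cdh5 and Tek encode sialomucins, junction receptors and an angiopoietin receptor that stem cells and endothelium share. These 10 of the 25078 genes in the count table were chosen by name, and Podxl and Bcam were included because they had differed between the genotypes compared here. The genotype values below were therefore used in the choice. They are given as a description, and no conclusion is drawn from their p-values. All 10 genes had counts and entered the fit, 8 of them with a mean RPKM (reads per kilobase of exon, scaled to library size) that reached 1 in some genotype.

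LSK cells (lineage-negative, Sca-1+, c-Kit+) were sorted from bone marrow, which is the fraction that holds the stem cells and early progenitors. The 5 CM mice carried Cbfb56M/+ and Mx1-Cre, so that poly(I:C) switched on the leukaemia fusion gene Cbfb-MYH11. The 5 CM/miR-126Δ/Δ mice carried in addition floxed miR-126 alleles, which the same Cre removed. Both genotypes therefore carried the fusion gene and had received poly(I:C), and LSK cells were collected 6 weeks later, before leukaemia. Mice of both sexes on a C57BL/6 background were used in the study. Mx1-Cre is induced by interferon and recombines beyond blood cells, and the comparison has no wild-type group. Libraries held 23649233 to 33202086 counts, with 1 library per mouse, and 3 counts corresponded to at most 0.127 CPM (counts scaled to library size), a limit that covers counting error only.

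CD34, podocalyxin (Podxl) and endomucin (Emcn) are sialomucins, long cell surface proteins covered in O-linked sugars that can hold cells apart or, when suitably glycosylated, bind selectins. ESAM, JAM-C (Jam3) and PECAM-1 are immunoglobulin-superfamily receptors at endothelial contacts, claudin-5 (Cldn5) seals tight junctions, and VE-cadherin (Cdh5) builds adherens junctions. BCAM is a receptor for laminin, and TEK (Tie2) is the receptor for angiopoietins, which is linked to stem cell quiescence in the marrow. Blood stem cells arise from endothelium in the embryo, and several of these proteins are used to sort or mark stem cells.

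The microRNA that was deleted, miR-126, lies in an intron of Egfl7 and is abundant in endothelium and in stem cells. Its mature 3p strand is shown because its seed defines the sites sought in the 10 genes. The sequence is RefSeq's, at chr2:26591402-26591423 on the plus strand of GRCm38.p6, the assembly that mm10 follows, with bases 2 to 8 (the seed) in capitals.
miR-126a-3p: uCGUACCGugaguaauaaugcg

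The precursor of miR-126a (Mir126a) was counted 4, 5, 0, 2 and 3 times in CM mice 1 to 5 and never (0 counts) in the 5 CM/miR-126Δ/Δ mice. These total counts, 14 against 0, had the direction that the labels give, but CM mouse 3 could not be told from a deleted mouse at this depth. Total RNA libraries capture few short RNAs, so these counts do not measure mature miR-126. Its host gene Egfl7 averaged 114 CPM in CM mice, against 107 CPM after the deletion.

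The seed sites were sought in the longest 3′ untranslated region of each gene among GENCODE M1 transcripts, which were available for all 10 genes. Neither the 6 letters opposite bases 2 to 7 of the microRNA (GGTACG) nor the 7 letters opposite bases 2 to 8 (CGGTACG) were found in any of them, on the transcript's own strand. Of the 9638 genes that reached 1 RPKM and had such a region, 3.58% held the 6 letters and 0.259% the 7 letters. The absence of these letters says nothing about sites elsewhere in the transcripts.

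Levels per exon length set the 10 genes far apart. Cd34 was the highest, at 347 ± 25.3 RPKM (SD, n = 10), and ranked 51 among the 18747 genes with a count. Pecam1 followed at 57.3 ± 4.51 RPKM, and Esam at 17.6 ± 3.11 RPKM. Emcn (9.71 ± 1.37 RPKM), Podxl (6.73 ± 2.65 RPKM) and Tek (5.29 ± 1.30 RPKM) lay close together in mid range. Bcam (3.26 ± 1.08 RPKM) and Jam3 (2.02 ± 0.582 RPKM) were lower, and the claudin and the cadherin were nearly silent, with Cldn5 at 0.297 ± 0.392 RPKM and Cdh5 at 0.189 ± 0.0720 RPKM. 

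The level was not used to choose the genes. The order was set by the mean RPKM of the same 10 mice, so the direction of each step is given by the sorting. The log2 ratio of neighbours within each mouse was tested against 0 (0.5 counts added, two-sided exact sign-change permutation test, adjusted over 9 neighbouring pairs). This asks how evenly a sorted step held over the mice and does not test its size. Of these pairs, 7 differed at an adjusted p under 0.05, among them steps with Podxl or Bcam, which are taken up below. Cd34 exceeded Pecam1 in 10 of 10 mice, with a mean log2 ratio of 2.60 ± 0.12 (SD) and an adjusted exact permutation p of 0.00439, whose unadjusted value of 0.00195 is the smallest that 1024 sign changes can give. Pecam1 over Esam, Esam over Emcn, and Jam3 over Cldn5 also held in 10 of 10 mice with the same p. Emcn exceeded Podxl in 9 of 10 mice (mean log2 ratio 0.61 ± 0.51, adjusted exact permutation p = 0.00879), as did Tek Bcam (0.73 ± 0.59, same p). Bcam exceeded Jam3 in 9 of 10 mice (0.67 ± 0.58, adjusted exact permutation p = 0.0126).

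The test pools the genotypes, and several steps differed in size between them. Steps with Podxl or Bcam thus take in the genotype difference that helped to choose these genes. No conclusion is drawn from the p-values of those steps. The mean log2 ratio of Bcam over Jam3 was 0.19 in CM and 1.15 in CM/miR-126Δ/Δ mice, so these genes were nearly level in CM, at 2.53 and 2.21 RPKM. Tek over Bcam was 1.15 in CM and 0.30 in CM/miR-126Δ/Δ mice, and Emcn over Podxl was 0.31 in CM and 0.90 in CM/miR-126Δ/Δ mice. Jam3 over Cldn5, which had the fewest counts of the 7 steps that passed, was 4.41 in CM and 2.61 in CM/miR-126Δ/Δ mice. The test also treats the 10 mice as independent. With the mean of each pair of same-numbered mice as the unit, the 7 steps had the same direction in 5 of 5 pairs, but 5 units cannot give a p below 0.0625. Podxl over Tek also held in 5 of 5 such pairs.

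The other pairs did not pass. Podxl over Tek had a mean log2 ratio of 0.30 ± 0.53 in favour of Podxl in 8 of 10 mice (adjusted exact permutation p = 0.127), and the means of these genes changed places between genotypes, with 8.46 and 5.50 RPKM in CM against 4.99 and 5.09 RPKM in CM/miR-126Δ/Δ mice. Cldn5 and Cdh5 also changed places, and their mean log2 ratio was -0.08 ± 1.82 (adjusted exact permutation p = 0.900). Within 1 genotype of 5 mice the smallest possible p of such a test is above 0.05, so the order was not tested there.

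To check the name endothelial-like against the data, 20 genes that define endothelium were read beside the 10. Of them 7 reached a mean of 1 RPKM in some genotype, namely Cd93, Eng, Tie1, Robo4, Aqp1, Vwf and Plvap. Cd93, the most abundant at 115 RPKM, made up 66.1% to 76.9% of the summed CPM of the list, and stem and progenitor cells are known to express Cd93, Eng, Tie1, Robo4 and Vwf too. Aqp1 stood at 6.04 RPKM and Plvap at 1.16 RPKM, and which cells the RNA of these genes came from was not tested. The VEGF receptors that define endothelium were low, with Kdr at 0.219, Flt1 at 0.140 and Flt4 at 0.306 RPKM, in the range of Cdh5 and Cldn5. Sox17, Lyve1, Gpihbp1 and Mmrn2 had 0 counts in at least 1 mouse. The name endothelial-like therefore holds here for where these receptors are best known, and most of the defining endothelial genes were below 1 RPKM.

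**Figure D1:**
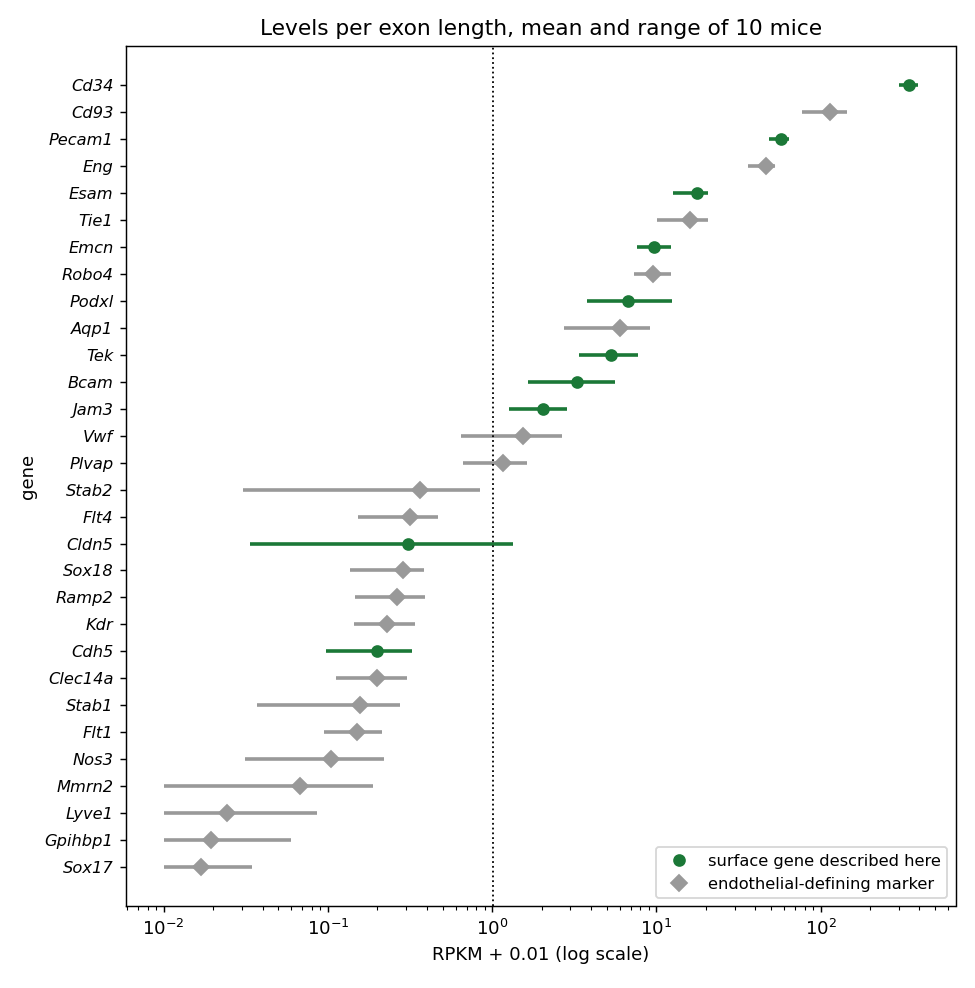
Mean level over 10 mice (symbol) and lowest to highest mouse (line) of the 10 surface genes and 20 endothelial-defining genes, as RPKM + 0.01 on a log axis, with a dotted line at 1 RPKM. The 8 most abundant surface genes lie above 1 RPKM from Cd34 at 347 down to Jam3 at 2.02, while Cldn5 and Cdh5 lie among Kdr, Flt4 and Clec14a.

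Between genotypes, 2 of the 10 genes passed the cutoffs of the study (edgeR quasi-likelihood p at or below 0.01, at least 1.5-fold, mean RPKM of at least 1), Podxl in the downward and Bcam in the upward direction. The background share of genes called by this rule was 0.288% (54 of 18747), and a fit that paired mice by number (replicate block) called 115 genes (0.613%), with Podxl and Bcam among them. Since this contrast helped to select the genes, nothing is read from their count. After adjustment over all genes none of the 10 had an edgeR p under 0.05, against a background of 0.0107%, and 3 had an unadjusted p under 0.05, against 6.61%. DESeq2 gave an adjusted p under 0.05 to 1 of the 10, Podxl, and to 45 genes in all. The median log2 fold change of the 10 genes was -0.11, beside -0.01 for all genes fitted, and 7 of the 10 had lower and 3 higher fitted values in CM/miR-126Δ/Δ mice.

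Podxl, at chr6:31519493-31563937 on the minus strand of mm10, encodes a CD34-family sialomucin and marks early blood stem cells of the embryo. Its levels were 42.0, 66.2, 51.2, 26.7 and 39.5 CPM in CM mice 1 to 5. In CM/miR-126Δ/Δ mice 1 to 5 they were 26.8, 25.1, 20.2, 29.3 and 31.5 CPM. CM mouse 2 was the highest of all 10 mice, and CM mouse 4 lay among the CM/miR-126Δ/Δ mice, so the genotypes overlapped. The means were 45.1 ± 14.7 against 26.6 ± 4.31 CPM (SD, n = 5 each), and the spread was wider in CM mice. The fitted log2 fold change was -0.76 (SE 0.19), and the level was lower in 4 of the 5 same-numbered pairs. Without CM mouse 2 the log2 fold change was -0.58, just short of the 1.5-fold cutoff.

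The other sialomucins differed little. Cd34, at chr1:194938821-194961292 on the plus strand, encodes the antigen that separates short-term from long-term mouse stem cells and had 943, 903, 891, 1025 and 953 CPM in CM mice 1 to 5. In CM/miR-126Δ/Δ mice 1 to 5 it had 877, 852, 969, 791 and 884 CPM. The genotypes overlapped, 4 of 5 pairs were lower in CM/miR-126Δ/Δ mice, and the fitted log2 fold change was -0.11 (SE 0.08). It was -0.15 without CM/miR-126Δ/Δ mouse 3 and -0.06 without mouse 4 of that genotype. Emcn, at chr3:137341078-137431069 on the plus strand and used as a marker of primitive stem cells, ranged from 13.6 to 16.7 CPM in CM mice and, with miR-126 deleted, from 11.2 to 17.8 CPM. Its log2 fold change was -0.10 (SE 0.12), with the highest CPM in CM/miR-126Δ/Δ mouse 1 and the lowest in mouse 4 of the same genotype. It was -0.21 without the former and -0.03 without the latter.

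Bcam, at chr7:19756138-19770532 on the minus strand, encodes the Lutheran laminin receptor. Its levels were 6.15, 7.43, 3.97, 7.33 and 5.51 CPM in CM mice 1 to 5. In CM/miR-126Δ/Δ mice 1 to 5 they were 13.5, 9.73, 7.79, 7.80 and 9.35 CPM. Every CM/miR-126Δ/Δ mouse was above every CM mouse, although the lowest of the former and the highest of the latter were close. Bcam was the only 1 of the 10 whose genotypes did not overlap, against a background share of 1.1% of genes. The means were 6.08 ± 1.43 against 9.63 ± 2.32 CPM (SD, n = 5 each), with a fitted log2 fold change of 0.66 (SE 0.19), a 1.58-fold difference near the cutoff. The log2 fold change was 0.52 without CM/miR-126Δ/Δ mouse 1 and 0.56 without CM mouse 3, and in neither case was Bcam called. These levels rested on 97 to 363 counts per library.

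Cldn5, at chr16:18776847-18778262 on the plus strand, had the widest spread. Its counts in CM mice 1 to 5 were 5, 1, 1, 10 and 10. Its counts in CM/miR-126Δ/Δ mice 1 to 5 were 8, 10, 1, 17 and 46. The 46 counts of CM/miR-126Δ/Δ mouse 5 stood apart, at 1.89 CPM, and CM/miR-126Δ/Δ mice 2 and 4, at 0.404 and 0.673 CPM, were also above the highest CM mouse at 0.336 CPM, while mice 1 and 3 lay within the CM range. The level was higher in CM/miR-126Δ/Δ mice in 5 of 5 pairs, in 1 of them by a single count against a single count at different depths. The fitted log2 fold change was 1.84 (SE 0.75) with all mice and 0.96 without that mouse, and the gene missed both the p cutoff and the RPKM cutoff. With the replicate block (1.74) it passed the p and fold cutoffs, and its mean under 1 RPKM in both genotypes alone kept it from being called.

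**Figure D2:**
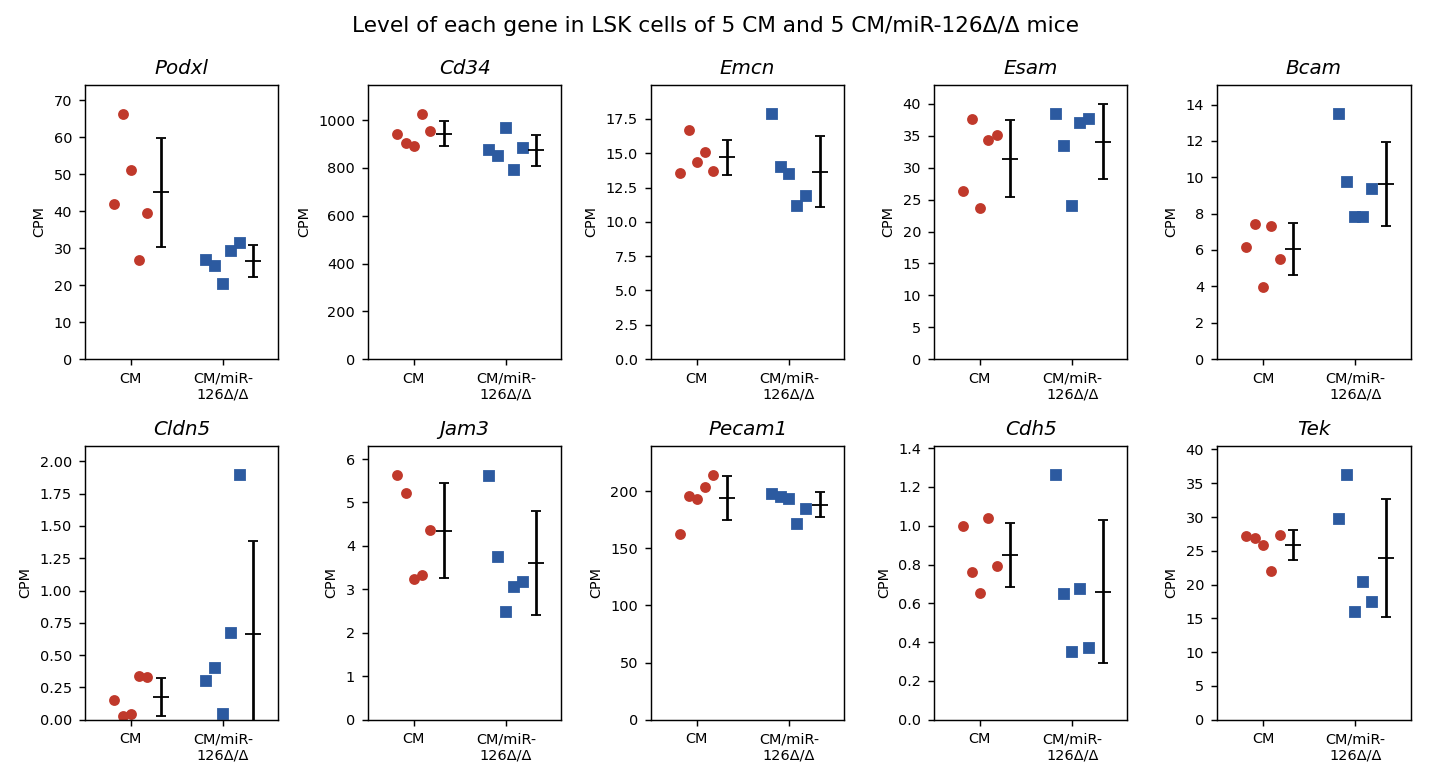
CPM of each gene in every mouse (red circles CM, blue squares CM/miR-126Δ/Δ, ordered by mouse number), with mean ± SD of the 5 mice in black and each axis starting at 0. The lower arm for Cldn5 in CM/miR-126Δ/Δ mice is cut at 0. Bcam is the only gene without overlap, Podxl overlaps through CM mouse 4 at 26.7 CPM, and for Cldn5 the highest mouse is at 1.89 CPM, with 2 of the 5 CM/miR-126Δ/Δ mice within the CM range.

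Sequence around the start of transcription was available in the RefSeq promoter table for Cd34, Emcn, Bcam, Cldn5 and Tek. The fusion protein of CM mice contains CBFβ, the partner of RUNX factors, so the windows (250 bases before to 50 bases after the start, GRCm38.p6) were searched on both strands for the RUNX letters TGTGGT and TGCGGT. They were searched in the same way for the GATA letters AGATAA and TGATAA and for the ETS letters AGGAAG and CGGAAG. RUNX letters stood in 22.5%, GATA letters in 19.0% and ETS letters in 46.4% of all 27025 promoters in that table.

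The 2 windows printed here belong to the genes with a promoter entry whose fitted differences between genotypes were the widest. The Bcam window (chr7:19770483-19770782, minus strand) held none of these letters, and its capitals mark 27 CpG pairs, against a median of 7 over all promoters. The Cldn5 window (chr16:18776597-18776896, plus strand) held TGCGGT at 2 places, which are in capitals. Of the others, Cd34 held ETS letters once, Emcn held ETS letters at 2 places and GATA letters once, and Tek held GATA letters once. These matches are letters in a window and were not tested for binding.
Bcam: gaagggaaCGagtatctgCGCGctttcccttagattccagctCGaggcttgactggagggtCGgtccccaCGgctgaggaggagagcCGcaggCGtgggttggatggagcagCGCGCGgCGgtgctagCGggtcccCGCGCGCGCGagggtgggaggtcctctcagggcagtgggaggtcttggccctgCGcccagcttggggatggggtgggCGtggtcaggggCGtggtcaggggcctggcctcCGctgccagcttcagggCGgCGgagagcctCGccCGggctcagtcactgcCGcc
Cldn5: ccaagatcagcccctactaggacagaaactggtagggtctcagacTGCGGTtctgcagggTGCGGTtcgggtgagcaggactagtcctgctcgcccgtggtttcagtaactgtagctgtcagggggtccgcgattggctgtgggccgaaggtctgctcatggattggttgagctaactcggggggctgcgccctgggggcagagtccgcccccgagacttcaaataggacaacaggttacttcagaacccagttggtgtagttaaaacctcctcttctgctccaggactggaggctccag

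The junction receptors of the immunoglobulin family showed no fitted difference as wide as that of Bcam. Pecam1 (chr11:106654213-106715281, minus strand), which joins like molecules on neighbouring cells, ranged from 162 to 214 CPM in CM mice and, with miR-126 deleted, from 171 to 198 CPM. Its log2 fold change of -0.04 (SE 0.07) turned to slightly above 0 when CM mouse 5 or CM/miR-126Δ/Δ mouse 4 was left out. Esam (chr9:37528089-37538319, plus strand), a marker of long-term stem cells, had 26.4, 37.6, 23.7, 34.3 and 35.1 CPM in CM mice 1 to 5. In CM/miR-126Δ/Δ mice 1 to 5 it had 38.4, 33.4, 24.1, 37.1 and 37.6 CPM. Both mice numbered 3 had the lowest Esam of their genotype, and the log2 fold change was 0.12 (SE 0.14). It was 0.05 without CM mouse 3 and 0.22 without CM/miR-126Δ/Δ mouse 3.

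Jam3 (chr9:27097384-27155421, minus strand), an adhesion receptor present on stem cells, ranged from 3.23 to 5.63 CPM in CM mice and, with miR-126 deleted, from 2.48 to 5.60 CPM. In 5 of 5 same-numbered pairs the CM/miR-126Δ/Δ mouse had less, while the ranges overlapped, and its log2 fold change was -0.27 (SE 0.23), with a range from -0.47 without CM/miR-126Δ/Δ mouse 1 to -0.15 without CM mouse 1 (-0.16 without CM/miR-126Δ/Δ mouse 3). Cdh5 (chr8:104101625-104144502, plus strand) had 16 to 33 counts in CM mice and, with miR-126 deleted, 8 to 34 counts, at a log2 fold change of -0.36 (SE 0.34), with a range from -0.72 without CM/miR-126Δ/Δ mouse 1, which had the most, to -0.20 without mouse 3 (-0.21 without mouse 5). Tek (chr4:94739289-94874976, plus strand) ranged from 22.1 to 27.3 CPM in CM mice. In CM/miR-126Δ/Δ mice 1 to 5 it had 29.8, 36.2, 15.9, 20.3 and 17.4 CPM. These 5 mice spread to both sides of all CM mice, and the log2 fold change was -0.11 (SE 0.19), or -0.31 without CM/miR-126Δ/Δ mouse 2 and 0.0041 without mouse 3. In these bulk libraries, fewer cells that express a gene and less of its RNA per cell cannot be told apart.

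RNA concentration moved with genotype, at 34.3, 27.9, 26.5, 20.6 and 40.9 ng/µL in CM mice 1 to 5 and 21.1, 20, 16.1, 29.5 and 18.2 ng/µL in CM/miR-126Δ/Δ mice 1 to 5. With the log2 of this concentration as a covariate, the log2 fold change was -0.60 for Podxl and 0.57 for Bcam, and neither passed the cutoffs. Only 22 genes were called in that fit. The log2 fold change of Jam3 then moved to -0.02, and that of Tek turned to 0.04. Those of Cd34 (-0.20), Emcn (-0.20), Esam (0.21) and Pecam1 (-0.09) grew, and that of Cdh5 shrank to -0.23. Total counts were also lower in CM/miR-126Δ/Δ mice, at a median of 24908932 against 29763105 in CM, and the part of depth and RNA concentration in these values was not tested further.

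**Figure D3:**
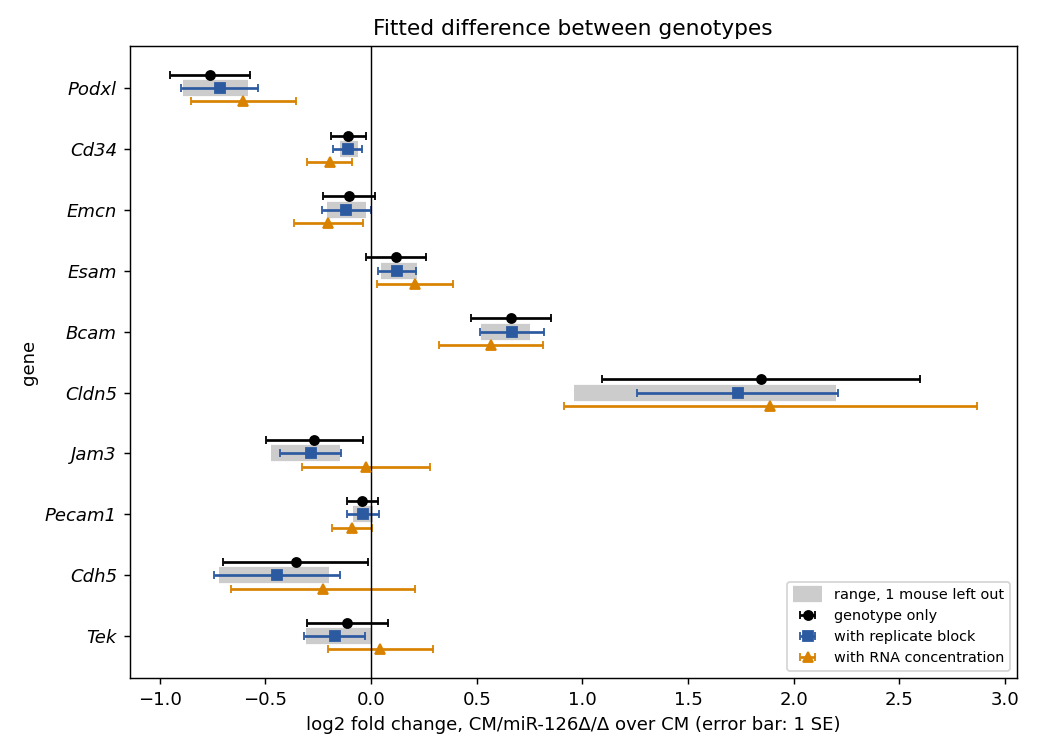
Fitted log2 fold change of each gene (CM/miR-126Δ/Δ over CM) with 1 SE, with genotype as the only term (black circles), with the replicate number as a block (blue squares) and with RNA concentration as a covariate (orange triangles), with the range over 10 fits that each left out 1 mouse (grey bars). Podxl, Cd34, Emcn, Jam3 and Cdh5 stay below 0 and Bcam, Cldn5 and Esam above 0 in all of these. Only Pecam1 and Tek change sign, and Cldn5 reaches from 0.96 to 2.20 when single mice are left out.

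The genes that work with these receptors were read from 7 lists (119 genes, 115 fitted), which were filled by known function. None of the 115 was called by the cutoffs and none had an adjusted p under 0.05 in edgeR or DESeq2, while 6 (5.22%) had an unadjusted edgeR p under 0.05. That share was close to the background of 6.61% of all genes. With the replicate block it was 12 genes (10.4%), beside 8.89% of all genes. The median log2 fold change over the 115 genes was -0.0035, beside -0.01 for all genes.

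Among the CD34 family and its sialomucin partners, 0 of 15 genes passed, 11 had lower fitted values and the median log2 fold change was -0.05. Selplg, a selectin ligand, had the smallest p of that list, with a log2 fold change of -0.15 (SE 0.10, edgeR adjusted p = 0.765). Of the enzymes that build mucin-type O-glycans, 0 of 19 passed and the median was -0.04. Galnt1, which starts these chains, had 48.2 RPKM, and St3gal4, a sialyltransferase, had a log2 fold change of -0.14 (SE 0.07, adjusted p = 0.764).

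Of the JAM family and tight junction genes, 0 of 28 passed, with 20 higher and 8 lower fitted values and a median log2 fold change of 0.12. Patj, a tight junction scaffold, had a log2 fold change of 0.26 (SE 0.09, adjusted p = 0.696), and Magi3, another scaffold, one of 0.25 (SE 0.11, adjusted p = 0.749). F11r, which encodes JAM-A, was the most abundant at 8.77 RPKM. The cadherin-catenin and nectin list had 0 of 14 genes called and a median of 0.002. Ctnnb1 (β-catenin) stood at 109 RPKM, and Nectin2 had a log2 fold change of 0.52 (SE 0.23, adjusted p = 0.748), on 38 to 123 counts per library.

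Of the PECAM1-related and other immunoglobulin-family adhesion genes, 0 of 13 passed, and the median was -0.06. Cd47, the signal that restrains phagocytes, was the most abundant at 194 RPKM. Alcam, an activated leukocyte adhesion receptor, had the smallest p of all 7 lists, with 37.1 to 46.5 CPM in CM mice against 45.7 to 60.3 CPM with miR-126 deleted. Its log2 fold change of 0.34 (SE 0.09, adjusted p = 0.514) was under the fold cutoff. Vcam1 was called only without CM mouse 2.

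In the angiopoietin pathway, Angpt1, the ligand that activates TEK, had 120 RPKM, above Tek at 5.29 RPKM, while Angpt2 had 0 to 5 counts per library. None of the 11 genes of that list was called, and the median log2 fold change was 0.04. In the list of BCAM and laminin-binding partners, 0 of 15 genes passed, and the median was 0.08. Its integrin subunit Itgb1 stood at 79.0 RPKM, and Lamb2, a laminin chain, had a log2 fold change of 0.48 (SE 0.29, adjusted p = 0.765) at 0.723 RPKM.

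Markers of the cell types that the LSK gate could hold were read in the same fit. The summed level of the 20 endothelial-defining genes was 1007, 1189, 1124, 1027 and 1139 CPM in CM mice 1 to 5 and 1063, 1134, 1247, 769 and 998 CPM in CM/miR-126Δ/Δ mice 1 to 5. The 13 of them with an RPKM under 1 summed to 14.8, 8.53, 10.4, 18.0 and 11.5 CPM in CM mice 1 to 5. In CM/miR-126Δ/Δ mice 1 to 5 these 13 genes summed to 11.4, 12.8, 6.23, 11.8 and 7.29 CPM. None of the 20 was called, and Aqp1, a water channel, had the smallest p, with a log2 fold change of 0.54 (SE 0.23, edgeR adjusted p = 0.746). Of the 20 genes 8 had higher and 12 lower fitted values in CM/miR-126Δ/Δ mice, with a median log2 fold change of -0.11. CM/miR-126Δ/Δ mouse 5, which had the most Cldn5, had the lowest summed CPM of the 13 genes under 1 RPKM but one. Among CM mice, mouse 4 was highest and mouse 2 lowest both in Cldn5 CPM and in this sum. In Cldn5 counts, however, CM mice 4 and 5 were level at 10 and CM mice 2 and 3 at 1. Their ranks in Cldn5 CPM thus rest on library depth alone. CM/miR-126Δ/Δ mouse 3 was the lowest of its genotype in Cldn5 and in this sum. The relation of Cldn5 to this sum was not tested.

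Long-term stem cell markers summed to 1007, 1006, 859, 1035 and 1173 CPM in CM mice 1 to 5 and to 1322, 1243, 1051, 1032 and 1168 CPM in CM/miR-126Δ/Δ mice 1 to 5. None of the 10 was called, and the 3 with an unadjusted edgeR p under 0.05 all had higher values in CM/miR-126Δ/Δ mice. Over all marker lists together 6 of 74 genes (8.11%) had such a p, beside 6.61% of all genes. Hlf, a transcription factor of stem cells, had a log2 fold change of 0.31 (SE 0.10, adjusted p = 0.661), Hoxb5 one of 0.59 (SE 0.21, adjusted p = 0.746) and Mecom one of 0.24 (SE 0.11, adjusted p = 0.748). Hlf alone averaged 581 CPM in CM mice, against 718 CPM with miR-126 deleted, which made up most of the difference of the summed list between genotypes. The summed CPM was higher on average in the same genotype as Bcam, and its part in the difference of Bcam was not tested. Ifitm1 was the most abundant of this list, at 129 RPKM.

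The genes that define the gate were expressed throughout, with Kit at 173 RPKM and Ly6a, which encodes Sca-1, at 57.8 RPKM. They were read with Ly6e, Flt3, Cd48 and Ptprc, which are not part of the gate, and 0 of these 6 were called. Cd48 had the smallest p of them, with a log2 fold change of -0.10 (SE 0.07, edgeR adjusted p = 0.765). Of the lymphoid markers 1 of 8 was called, Il7r, which encodes the interleukin-7 receptor and ranged from 10.3 to 28.2 CPM in CM mice and, with miR-126 deleted, from 4.24 to 14.4 CPM. Its log2 fold change was -0.95 (SE 0.28, adjusted p = 0.626), a call that was lost with RNA concentration as a covariate, with robust dispersions and without CM mouse 2 or CM/miR-126Δ/Δ mouse 1, and all 8 lymphoid genes had lower fitted values in CM/miR-126Δ/Δ mice. None of the 9 myeloid, 7 megakaryocyte, 6 erythroid and 8 stromal markers fitted was called. Itgb3, a platelet integrin subunit, had the smallest p of the megakaryocyte list, with 31.4 to 48.1 CPM in CM mice against 27.6 to 34.4 CPM with miR-126 deleted and a log2 fold change of -0.36 (SE 0.11, edgeR adjusted p = 0.661). Csf1r, a macrophage growth factor receptor, had the smallest p of the myeloid list, with a log2 fold change of -0.22 (SE 0.23, edgeR adjusted p = 0.812). Of the 9 myeloid markers 6 had higher and 3 lower fitted values in CM/miR-126Δ/Δ mice, with a median log2 fold change of 0.02. The summed list was 2930, 2083, 3951, 3242 and 2757 CPM in CM mice 1 to 5. In CM/miR-126Δ/Δ mice 1 to 5 it was 1767, 2781, 4673, 2723 and 3222 CPM. CM mouse 2 and CM/miR-126Δ/Δ mouse 1 had the lowest sum and the highest Bcam of their genotype. Both mice numbered 3 had the highest sum and, narrowly in CM/miR-126Δ/Δ mice, the lowest Bcam. Among the others, CM mouse 4 had more of both than CM mouse 5. The relation of Bcam to this sum was not tested. Mpo, a granule enzyme, led the myeloid list at 853 RPKM, Itga2b the megakaryocyte list at 46.1 RPKM, Car1 the erythroid list at 28.8 RPKM and Pdgfrb the stromal list at 21.2 RPKM. Of the stromal markers Col1a1, Col3a1, Lepr and Acta2 were near 0. The adult globin genes Hba-a1, Hba-a2 and Hbb-bt had 0 counts in all libraries, which is also what reads shared by near-identical copies can give. The part of these other cells in the levels of the 10 genes was not tested.

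Whether the 10 genes varied together between mice was tested after the mean of each genotype was removed from log2 CPM (prior count 2), which takes out the contrast used to select them. Over 10 mice, 30 of the 45 pairs had a positive and 15 a negative Pearson's r, with a median r of 0.20. The exact permutation test over all orders of the mice within each genotype left 0 of the 45 pairs, and 0 of 10 pairs with the mean of the stem cell markers, at an adjusted p under 0.05, while 7 of the 55 had an unadjusted p under 0.05. The test treats the mice of a genotype as independent, and it leaves out any pairing of same-numbered mice. No relation of these genes to each other was thus established at this number of mice.

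The strongest opposite pair was Podxl and Cd34, with r = -0.75 and Spearman's rho = -0.61 (exact permutation p = 0.00875 and 0.0747, adjusted 0.241 and 0.498). It was -0.93 within CM, -0.70 within CM/miR-126Δ/Δ mice and -0.74 without the 2 mice farthest from the median of Podxl. Esam followed the mean of the stem cell markers with r = 0.88 and rho = 0.77 (exact permutation p = 0.00437 and 0.0169, adjusted 0.241 and 0.359). The r was 0.85 within CM and 0.92 within CM/miR-126Δ/Δ mice, and it was 0.51 without the 2 mice farthest from the median of Esam, a step that also narrows the range. Bcam and Jam3 had r = 0.69 and rho = 0.77 (exact permutation p = 0.0376 and 0.0196, adjusted 0.327 and 0.359), and r was 0.16 without the 2 mice farthest in Bcam. Podxl and Bcam, the genes that were called, had r = -0.06 and rho = 0.05 (exact permutation p = 0.878 and 0.899, adjusted 0.947 and 0.989). 

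**Figure D4:**
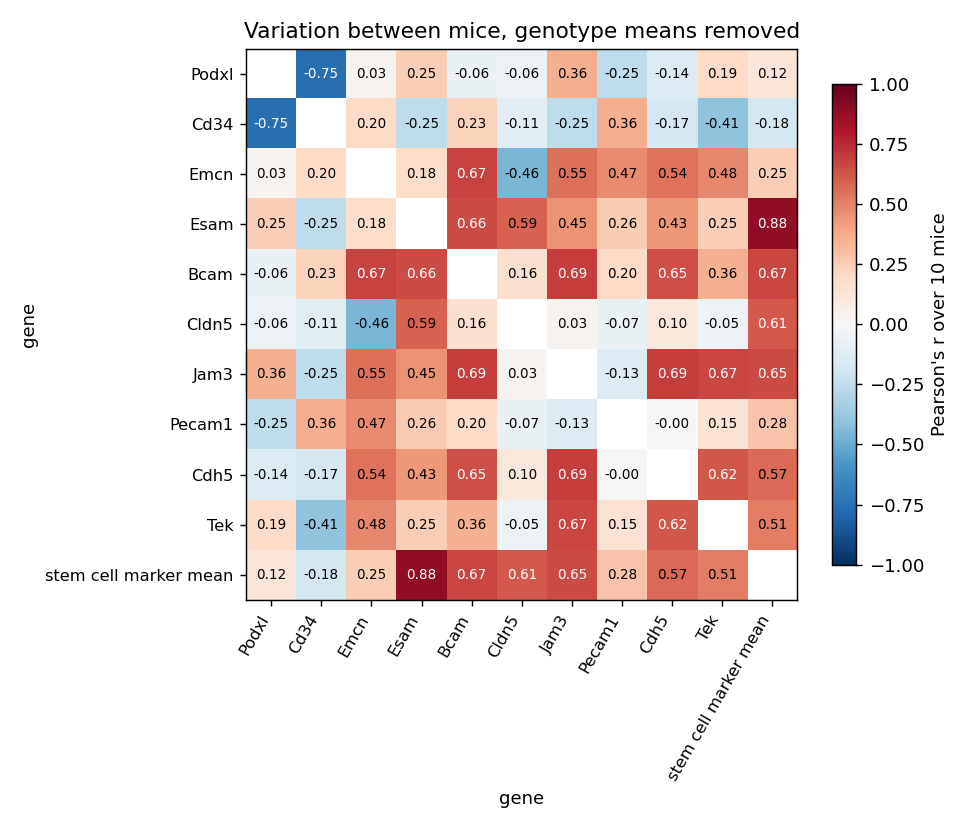
Pearson's r over 10 mice for each pair of genes and for each gene with the mean of the stem cell markers, from log2 CPM with the genotype means removed (red positive, blue negative). The darkest fields are Esam with the stem cell markers at 0.88 and Podxl with Cd34 at -0.75, and no pair passed the adjusted test. Bcam, Jam3, Cdh5 and Tek are positive with each other here, but within CM Cdh5 with Tek was -0.46 and Bcam with Tek -0.28.

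Among 12275 genes with a mean of at least 1 CPM, those most like Podxl across the 10 mice were Syvn1 (r = 0.91), Preb (0.90), Lrrc27 (0.89), Clk4 (0.88) and Cep135 (0.87). Those most like Bcam were Tkfc (r = 0.94), Tspan9 (0.93), Pdlim1 (0.92), Sgsm2 (0.92) and Laptm4b (0.92). These are the highest of many values over few mice that share a library each, and are given as a description. The fitted differences of these 10 genes between genotypes were small, with log2 fold changes from -0.10 for Clk4 to 0.25 for Lrrc27.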

How the data were processed

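RNA sequencing of LSK cells from 5 CM and 5 CM/miR-126Δ/Δ mice was analysed, 1 library per mouse, with genotype and number from the sample labels. The authors trimmed single-end reads from ribosome-depleted libraries, aligned them to mm10 with Tophat and counted RefSeq genes with HTSeq (0.6.1p1 per the labels). The deposited counts are whole, unnormalized reads per gene. Whether counting used the strand is not stated, so overlapping genes can share reads. A second table, the counts divided by a constant per library, was not used.

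All 18747 genes that had a count entered 1 fit with genotype alone (edgeR 4.0.16 under R 4.3.3, TMM, two-sided quasi-likelihood F-test as edgeR 3 computed it), with Benjamini-Hochberg adjustment over all of them. This rule and its cutoffs follow the study. CPM and RPKM used TMM-scaled library sizes and, for RPKM, the exon length in the table. Log2 fold changes carry SEs from the F statistic. Fits were tested on simulated data. DESeq2 1.42.0 and the other alternatives are given at the end. Python 3.11.15 was used for permutations.

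The 10 genes and all lists were chosen with earlier results of these data known. Named genes were the 10, each list's called, most abundant and smallest-p genes, and the 5 genes most like Podxl and Bcam. An item that this rule names is not reported here. Magi3, Hoxb5, Mecom, Vcam1, the low and absent markers and the gate genes were named outside this rule, after their values were seen.

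Replicate numbers 1 to 5 occur in both genotypes. Deviations from the genotype means over 12275 genes correlated in all 5 same-numbered pairs (r 0.150 to 0.469, against a mean of -0.08 and a range of -0.455 to 0.516 over the 20 other pairs). No label says what a number shares, and this check is weak. The highest r was that of CM mouse 5 with CM/miR-126Δ/Δ mouse 4, and CM mouse 2 with CM/miR-126Δ/Δ mouse 1 had 0.456. Deviations from genotype means also draw the other pairs below 0 where same-numbered pairs lie above it. Pairing by number was therefore used as an alternative (replicate block), and the main fit was left unpaired. Nothing states separate litters or cultures, and p-values measure the spread between these mice.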

Additional observations from a re-analysis of the deposited data

Results flagged for a closer look

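Tek in CM mouse 4 lay apart from the rest of its genotype, at 22.1 CPM against 25.8 to 27.3 CPM in the other 4 CM mice, a gap of 0.722 of the whole range where 0.710 is the limit for 5 samples. It was 1 of 24 groups of 5 values checked (the 10 genes, total counts and the share of Rn45s in each genotype), and chance alone gives about 1.2.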

How the results depend on the processing

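Podxl and Bcam were also called with RLE factors, DESeq2, filterByExpr, a minimum of 1 RPKM, the edgeR 4 quasi-likelihood, robust dispersions, a prior count of 2, Rn45s left out and the replicate block. All of these fits repeat the contrast that helped to choose these genes, so their calls are a description only. With RNA concentration as a covariate 22 genes were called, 0 of them among the 10, and 0 had an adjusted p under 0.05. The replicate block gave 115 genes called and 20 with an adjusted p under 0.05, against 54 and 2 without it, and changed no call among the 10 genes. DESeq2 gave 45 genes with an adjusted p under 0.05. With 1 mouse left out, 33 (without CM/miR-126Δ/Δ mouse 5) to 128 (without CM mouse 3) genes were called, 85 without CM/miR-126Δ/Δ mouse 1 and 94 without mouse 4, and 1 to 7 had an adjusted p under 0.05. Of the 10 genes 1 to 2 were called, with Podxl lost without CM mouse 2 and Bcam lost without CM mouse 3 or CM/miR-126Δ/Δ mouse 1. In these fits 2 to 5 of the 10 had an unadjusted edgeR p under 0.05, with 5 without CM/miR-126Δ/Δ mouse 1. The share of all genes under that level was not worked out for these fits, so nothing is read from these counts. Of the partner genes 0 to 1 were called. Of the marker genes 0 to 3 were called, with Aqp1 and Car1 joining Il7r without CM mouse 3, and Hoxb5 joining it without CM mouse 5 or with the minimum of 1 RPKM. Of the neighbouring pairs in the order of levels 7 to 8 differed, and 7 did with 2 counts added. Of the 55 correlations 0 to 1 passed adjustment, the 1 being Bcam with the stem cell markers without CM mouse 5 (r = 0.82, adjusted exact permutation p = 0.0191), and 0 did with Spearman's rho, RLE factors, a prior count of 0.5 or without the 2 farthest mice. The order of levels could not be tested within 1 genotype. Cldn5 was removed by filterByExpr and by the minimum of 1 RPKM, and Cdh5 by the latter. Depth limits Cldn5, with 1 to 46 counts, and Cdh5, with 8 to 34. The causes of these shifts were not tested beyond the construction of each alternative.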
